A study of Mus musculus with 9 samples.

Results

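Cytosolic ribosomal protein genes were described in the livers of 9 male mouse offspring. A gene was taken as a member if it is annotated as protein-coding and its symbol is Rpl or Rps followed by a number, with Rplp0, Rplp1, Rplp2 and Rpsa added and the Rps6k kinase genes and Rps19bp1 left out. By this rule 91 of the 55335 genes in the table were members. They comprised 43 genes of the large (60S) subunit, 31 of the small (40S) subunit, 3 of the ribosomal stalk, 8 paralogues of other members (genes such as Rpl22l1 and Rps27l that resemble a standard subunit) and 6 genes with the -ps symbol of a pseudogene that the annotation still lists as protein-coding. The rule used no measured value.

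The mice were labelled as of the B6D2F2 strain. They were 20 weeks old, fasted for 4 h and, by the methods of the paper, fed chow. The embryos of the in vitro fertilization groups came from B6D2F1/J parents. There were 3 in each of 3 groups: natural conception (NC-chow, mice 1, 5 and 6), in vitro fertilization with transfer of fresh 2-cell embryos (IVF-chow, mice 2, 3 and 4), and in vitro fertilization with slow freezing in propanediol, thawing and transfer of the embryos (FET-chow, mice 2, 3 and 4). The IVF-chow and FET-chow mice were carried by pseudopregnant ICR females and the NC-chow mice by their own mothers, so that recipient strain and conception cannot be told apart between these groups and NC-chow. FET-chow and IVF-chow mice differed by the freezing, storage and thawing of the embryos and by a culture step between thawing and transfer. The litter of each mouse is not given in the sources used here, so p-values measure the spread between these mice only.

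The cytosolic ribosome makes all proteins encoded in the nucleus. Its small subunit reads the mRNA, its large subunit joins the amino acids, and the stalk (Rplp0 with Rplp1 and Rplp2) recruits the translation factors that use GTP. The mRNAs of ribosomal proteins carry a terminal oligopyrimidine (TOP) motif at the 5′ end through which the kinase mTOR, a sensor of nutrients and insulin, controls their translation. The hepatocyte is a major site of protein synthesis and ribosomal protein mRNAs are abundant in it.

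The values are FPKM, fragments scaled to gene length and to library size. By the spacing of low values, where 1 fragment is the smallest step, the libraries held an estimated 1990000 (FET-chow mouse 2) to 13160000 (NC-chow mouse 6) mapped fragments, of which 4700 (FET-chow mouse 4) to 38800 (NC-chow mouse 6) fell on the members. By this estimate each FET-chow library was smaller than each library of the other groups. The FET-chow libraries had 6895 to 10561 nuclear protein-coding genes above 0 against 10275 to 14085 in the others. A total of 3 non-coding RNA entries took 3.49% to 61.9% of the summed FPKM, the most in IVF-chow mouse 2, and mitochondrial genes took 27.6% to 55.3%. An FPKM of a nuclear gene therefore depended on how much of a library went to those RNAs, and the members were also given as a share of the summed FPKM of nuclear protein-coding genes, for single genes in parts per 1000000 (ppm). NC-chow mice 5 and 6 carry sample sheet numbers far from those of the other 7 mice. The markers of hepatocytes (8 genes) made up 9.0% to 14.0% of coding FPKM, and no lymphocyte marker of 8 reached the level for testing.

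Ribosomal protein mRNA was abundant in each library. Of the 91 members, 86 averaged an FPKM of 1 or more across the 9 mice and were tested. Their median over genes of the mean FPKM was 37.6, against 2.74 for the 5638 other nuclear protein-coding genes tested, and 59 of the 500 most abundant coding genes were members. Their annotated transcripts were short, with a median of 630 bases against 1093, and they lay on 20 chromosomes. The highest mean FPKM belonged to Rpl36 (521), Rps15 (412), Rpl38 (271), Rpl19 (267) and the stalk gene Rplp1 (214). At the other end were the 5 members not tested. Rpl10l, the copy of Rpl10 known from the testis, and Rpl36-ps4 were listed at 0 in all 9 mice. Rpl39l, likewise known from the testis, was above 0 in NC-chow mouse 5 alone and Rpl9-ps1 in IVF-chow mouse 2 alone, at an FPKM of 0.1 in both. Rpl3l, the form of Rpl3 known from heart and skeletal muscle, was at 2.55 in NC-chow mouse 1, at 0.07 in NC-chow mouse 6 and at 0 in the other 7 mice.

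Short sequence features were looked for at the start sites of members. RefSeq promoter sequences (GRCm38.p6, from 250 bases before to 50 bases after the start) were matched by symbol to 65 of the 91 members, with 77 entries. CTTTCC, a pyrimidine run of the kind found at TOP starts, lay on the transcript strand between 50 bases before and 50 after the start in 31.2% of member entries and in 4.69% of all 32851 entries. CCGGAAG, the core recognised by ETS factors such as GABPA, lay on either strand of the 300 bases in 35.1% of member entries and in 8.86% of all. TATAAA, the TATA box, lay in the 50 bases before the start in 1.3% and 2.63%. These are matches of letters only. The 50 bases from 30 before to 20 after the start are given for the 4 most abundant members with an entry, to show starts of highly expressed members (Rpl36 and Rplp1 were not matched), and for members described in the results, which are Rpsa, Rps6, Rplp2 and 2 paralogues, each with its parent gene. Capitals mark CTTTCC and CCGGAAG on either strand.

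Rps15 (chr10:80292401-80292450, plus strand): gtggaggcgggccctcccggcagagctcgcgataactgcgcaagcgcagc
Rpl38 (chr11:114668550-114668599, plus strand): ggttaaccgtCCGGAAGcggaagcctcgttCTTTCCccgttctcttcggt
Rpl19 (chr11:98026680-98026729, plus strand): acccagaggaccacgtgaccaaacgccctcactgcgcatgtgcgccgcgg
Rpl13a (chr7:45128726-45128775, minus strand): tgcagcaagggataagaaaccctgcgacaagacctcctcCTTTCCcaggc
Rpsa (chr9:120127736-120127785, plus strand): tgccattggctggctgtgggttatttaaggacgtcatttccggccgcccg
Rps6 (chr4:86857348-86857397, minus strand): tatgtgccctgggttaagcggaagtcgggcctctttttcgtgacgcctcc
Rplp2 (chr7:141447621-141447670, plus strand): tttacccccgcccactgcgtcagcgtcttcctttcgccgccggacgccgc
Rps27 (chr3:90213629-90213678, minus strand): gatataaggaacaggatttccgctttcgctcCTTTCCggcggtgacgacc
Rps27l (chr9:66946056-66946105, plus strand): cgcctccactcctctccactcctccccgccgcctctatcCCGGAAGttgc
Rpl22 (chr4:152325696-152325745, plus strand): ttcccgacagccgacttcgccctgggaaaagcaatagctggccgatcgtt
Rpl22l1 (chr3:28805478-28805527, plus strand): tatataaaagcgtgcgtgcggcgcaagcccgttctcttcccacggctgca

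Summed over the 91 members, the FPKM was 3823, 4612 and 4968 in NC-chow mice 1, 5 and 6. For IVF-chow mice 2, 3 and 4 it came to 1062, 5925 and 10492. For FET-chow mice 2, 3 and 4 it came to 7520, 8312 and 2799. On this scale the groups overlapped, and the lowest and the highest sum both came from IVF-chow mice. As a share of nuclear protein-coding FPKM, the members made up 4.08%, 3.34% and 3.17% in the NC-chow mice (3.53 ± 0.48, SD, n = 3). The share was 2.71%, 5.42% and 4.55% in the IVF-chow mice (4.23 ± 1.38, SD, n = 3) and 8.23%, 6.43% and 6.17% in the FET-chow mice (6.94 ± 1.12, SD, n = 3). On this scale each FET-chow mouse lay above each of the other 6 mice, while NC-chow and IVF-chow mice overlapped. After median-ratio scaling of the libraries each FET-chow mouse again lay above each of the other 6 mice. The sums were 5563 to 6855 in the FET-chow mice, 3222 to 4079 in the NC-chow mice and 3085 to 5355 in the IVF-chow mice. In bulk liver RNA a change in the mix of cells and a change in the RNA of each cell cannot be told apart. The part of the small size of the FET-chow libraries in this difference was not tested.

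**Figure D1:**
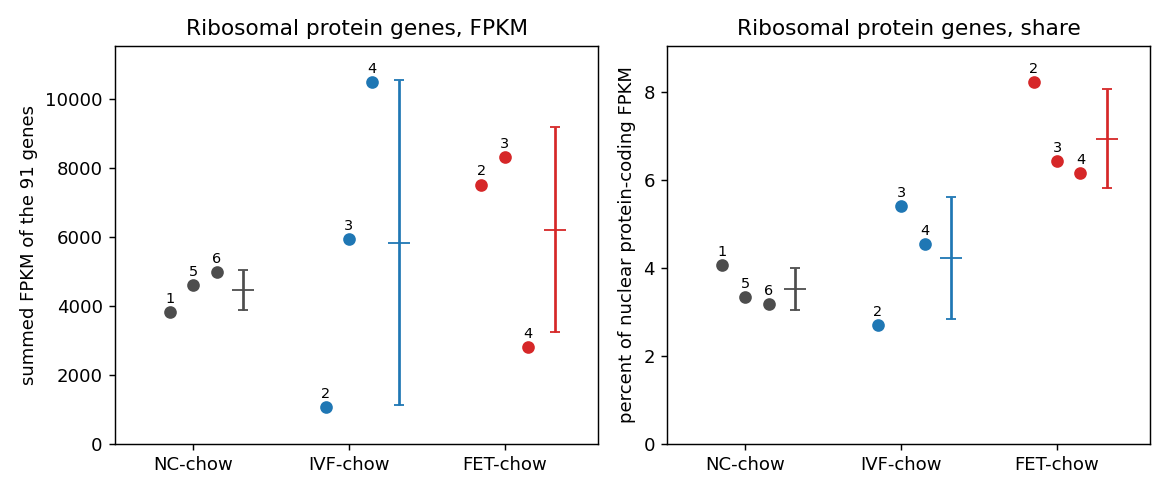
The 91 ribosomal protein genes by mouse, as summed FPKM (left) and as the percent of nuclear protein-coding FPKM (right), with numbered points for mice and the mean ± SD of 3 mice beside each group. The FPKM sums of the groups overlap, while the shares of FET-chow mice (6.17% to 8.23%) lie above those of all other mice (2.71% to 5.42%).

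The summed FPKM of the 40S genes and that of the 60S genes moved together from mouse to mouse. The sum of all nuclear protein-coding genes also ran from 39170 (IVF-chow mouse 2) to 230355 (IVF-chow mouse 4). Whether the joint movement is particular to ribosomal protein genes was not tested. The 40S genes summed to between 0.487 (FET-chow mouse 4) and 0.627 (IVF-chow mouse 4) of the FPKM of the 60S and stalk genes, and the ratio was 0.604, 0.540 and 0.515 in NC-chow, 0.509, 0.542 and 0.627 in IVF-chow and 0.624, 0.535 and 0.487 in the FET-chow mice. In FPKM, IVF-chow mouse 2 was the lowest mouse for 84 of the 86 tested members and IVF-chow mouse 4 the highest for 58, where it was the highest for 43.5% of all genes tested. IVF-chow mouse 2 was the lowest for 37.8% of all genes tested in FPKM and for 11.7% on the share scale, with a further 12.8% tied for the lowest between mice. On the share scale FET-chow mice were the highest for 76 of the 86 (FET-chow mouse 2 for 49, mouse 3 for 13 and mouse 4 for 14), and IVF-chow mouse 2 was the lowest for 52. Of all genes tested, 48.7% were highest in a FET-chow mouse on that scale. By mouse, the shares of all genes were 24.0% in FET-chow mouse 2, 8.13% in mouse 3 and 16.6% in mouse 4.

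**Figure D2:**
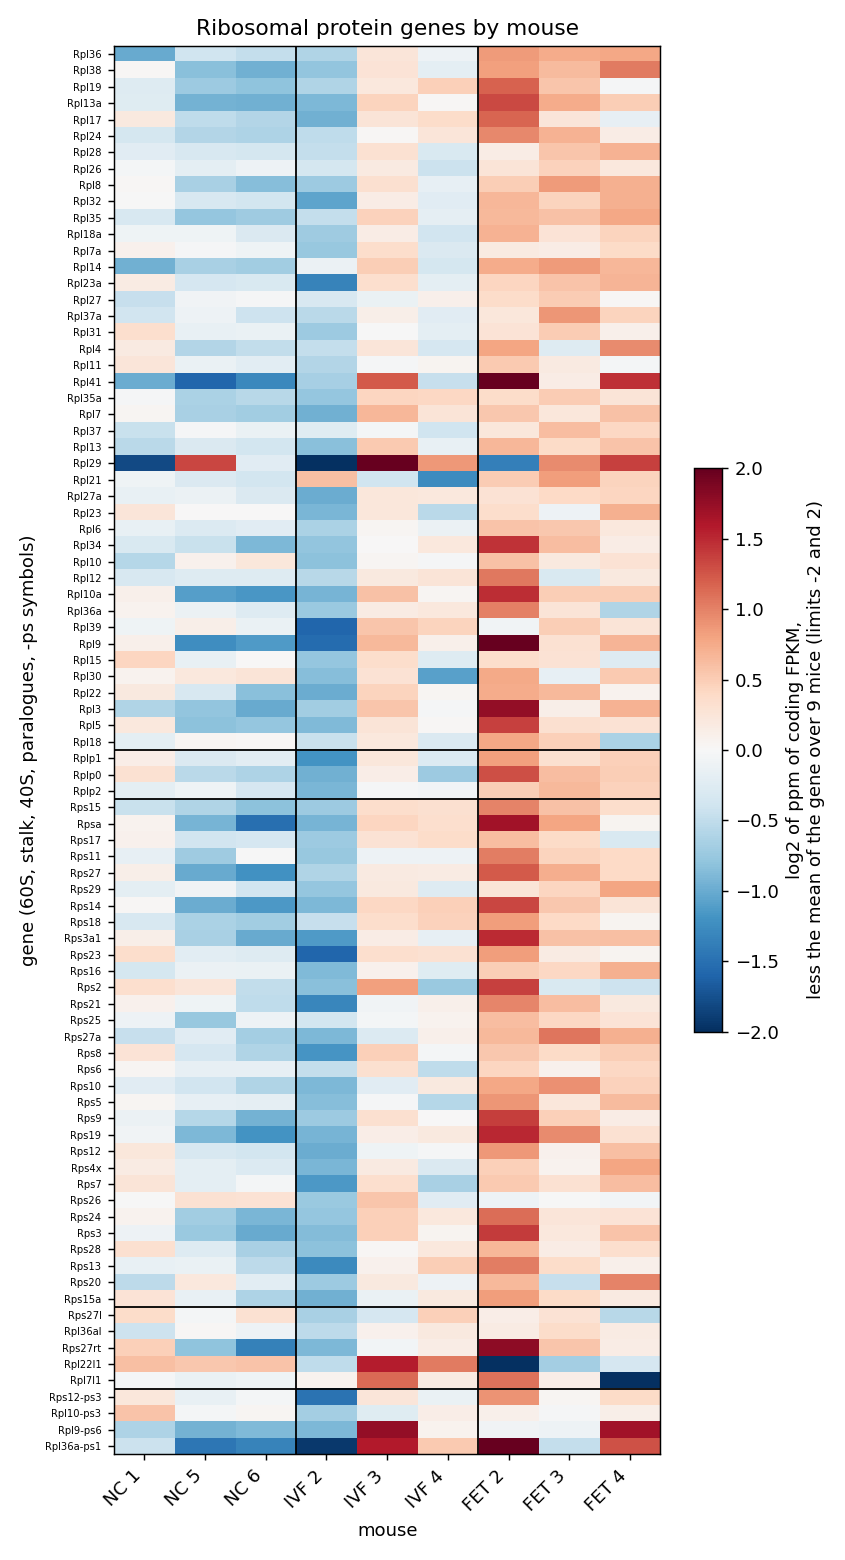
Colour shows, for each of the 86 tested ribosomal protein genes (rows, by class) and each mouse (columns), the log2 of the value in ppm of nuclear protein-coding FPKM, less the mean of the gene over the 9 mice. A FET-chow column is the highest for 76 of the 86 genes, and Rpl29, Rpl36a-ps1, Rpl41 and Rpl22l1 stand out by their spread.

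FET-chow mice were compared with NC-chow mice to ask how frozen and thawed embryo transfer differs from natural conception in adult liver. No member passed the test in FPKM (limma on log2(FPKM + 1), adjusted p under 0.05, 0 of 86, where 0.237% of the 6755 genes tested passed), and 1 of 86 had an unadjusted p under 0.05, where 12% of all genes did. The median log2 fold change of the members was 0.11, with 54 of 86 positive, while the median of all genes tested was -0.46 with 25.6% positive. The standard errors were wide, with a median of 1.02 over the members. In FPKM, 3 of 86 members had each FET-chow mouse above each NC-chow mouse, against 1.98% of all genes, and 2 of 86 had each FET-chow mouse below each NC-chow mouse, against 17.1%. The sign of the median in FPKM depended on single mice, since it was -0.20 without FET-chow mouse 3, -0.01 without FET-chow mouse 2, 0.01 without NC-chow mouse 1, 0.17 without NC-chow mouse 5 or 6, and 0.51 without FET-chow mouse 4. Without NC-chow mice 5 and 6 it was 0.39.

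Rescaling each library to the same sum over nuclear protein-coding genes moved the median of all genes from -0.46 to -0.06 and that of the members to 0.72, with 81 of 86 positive. Of all genes tested, 46.6% were positive on this scale. Still no member passed the test (0 of 86 in limma, against 0.266% of all genes, smallest adjusted p = 0.096 for Rpl14). Over 22 settings of the fit the smallest adjusted p of a member lay between 0.058 and 1 in limma. At an unadjusted p under 0.05 there were 35 members higher and 1 lower in the FET-chow mice, where 16.7% of all genes passed in either direction. Each FET-chow mouse lay above each NC-chow mouse for 55 of 86 members, against 9.99% of all genes, and below each for 1 of 86, against 11.5%. The median stayed between 0.63 and 0.83 when single mice were left out and was 0.58 without NC-chow mice 5 and 6. The median was 0.72 over the 31 genes of the 40S and 0.76 over the 43 of the 60S, but -0.03 over the 5 tested paralogues, with 2 positive, and 0.78 over the 4 tested genes with a -ps symbol. The 2165 other coding genes no longer than 90% of the members, tested in the same fit, had a median of -0.09 with 44.4% positive. Over the members, the rescaled fold change had a Spearman correlation of 0.01 with transcript length and of 0.28 with mean FPKM, across genes that share the same 9 libraries.

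**Figure D3:**
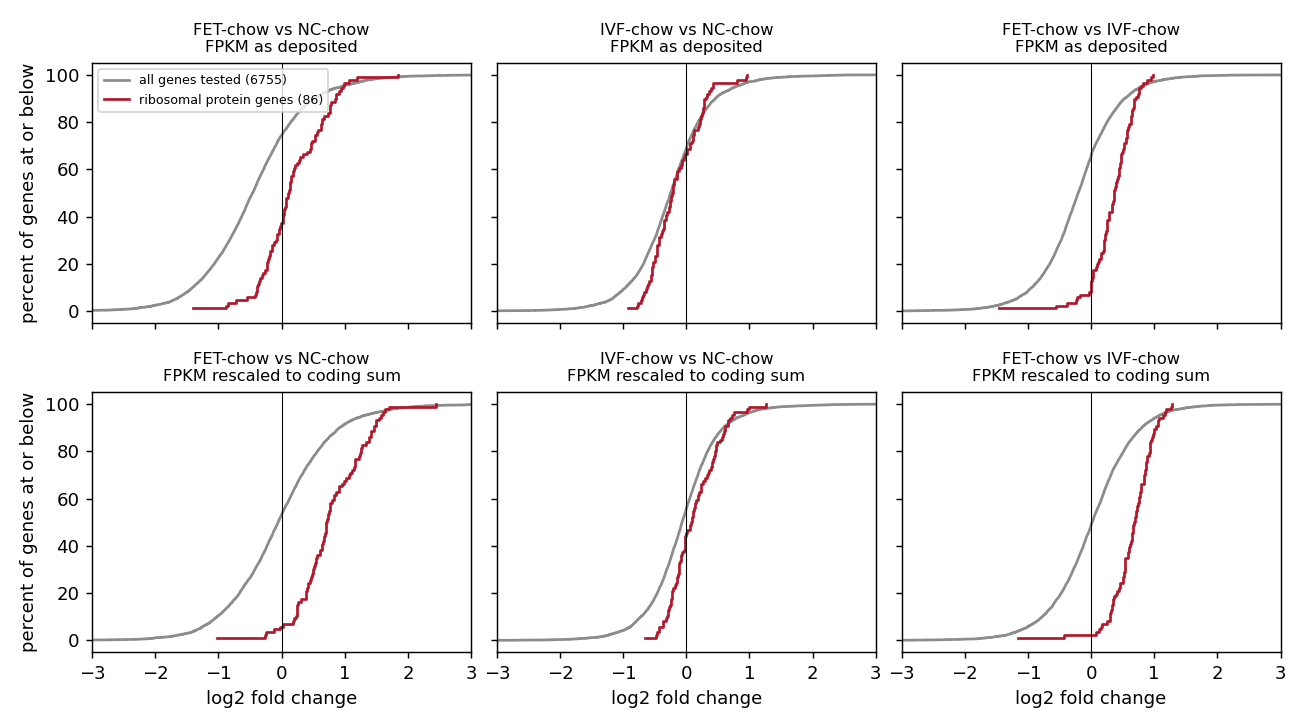
Cumulative share of genes (percent) by log2 fold change for the 86 ribosomal protein genes (red) and all 6755 genes tested (grey), in 3 comparisons, on FPKM as deposited (top) and rescaled to nuclear protein-coding genes (bottom). In FET-chow against NC-chow the median of the ribosomal protein genes is 0.11 in FPKM and 0.72 rescaled, against -0.46 and -0.06 for all genes.

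The most abundant members differed in how far the groups stood apart. Rpl36 (ENSMUSG00000057863, chromosome 17 from 56613416 to 56614243, GRCm38), a 60S protein, stood at 2146, 3250 and 3105 ppm of coding FPKM in the NC-chow mice, 2830, 5072 and 4000 in the IVF-chow mice and 7765, 7164 and 7327 in the FET-chow mice. The FET-chow mice were close together and above all others. Its rescaled log2 fold change in FET-chow against NC-chow was 1.41 (standard error 0.36, adjusted p = 0.142 in limma). The deposited FPKM gave 0.77 (standard error 1.07, adjusted p = 0.82). Rpl38 (ENSMUSG00000057322, chromosome 11 from 114668524 to 114672331), the 60S protein whose loss disturbs the patterning of the mouse skeleton, was at 2323, 1282 and 1182 ppm in NC-chow, 1328, 2776 and 2009 in IVF-chow and 4058, 3549 and 4690 in the FET-chow mice. The groups FET-chow and NC-chow did not overlap, and rescaled it had a log2 fold change of 1.41 (standard error 0.41, adjusted p = 0.169 in limma). Rps15, of the 40S, was at 2389, 2149 and 1847 ppm in NC-chow, 1975, 4185 and 4079 in IVF-chow and 6534, 4908 and 4176 in the FET-chow mice. FET-chow mouse 4 (4176) lay just under IVF-chow mouse 3 (4185). Rpl19, of the 60S, was at 1718, 1250 and 1183 ppm in NC-chow, 1351, 2378 and 2861 in IVF-chow and 4642, 3038 and 2022 in the FET-chow mice, so that FET-chow mouse 4 was above the NC-chow mice but below IVF-chow mice 3 and 4. In Rpl17, also of the 60S, FET-chow mouse 4 (1062) lay below NC-chow mouse 1 (1365). Rpl14, a 60S protein of middle abundance, had the smallest adjusted p of the members on the rescaled scale, with 299, 372 and 357 ppm in the NC-chow mice, 535, 820 and 456 in the IVF-chow mice and 973, 1048 and 917 in the FET-chow mice, and a rescaled log2 fold change of 1.49 (standard error 0.33). Its fold change in FPKM was 0.86 (standard error 1.06, adjusted p = 0.787), and on that scale the smallest adjusted p was that of Rpl22l1 (0.387).

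Rpl41 had the largest fold change of the members in FET-chow against NC-chow. Rpl41 (ENSMUSG00000093674, chromosome 10 from 128548114 to 128549305) encodes the smallest protein of the 60S, a peptide of mostly arginine and lysine. Its FPKM was 12.8, 12.5 and 17.3 in the NC-chow mice and 6.69, 69.6 and 45.4 in the IVF-chow mice. It was 112, 38.9 and 33.9 in the FET-chow mice. FET-chow and NC-chow did not overlap, and the highest and lowest FET-chow mice lay far apart. The fold change on the log2 scale was 1.84 in FPKM (standard error 1.01, adjusted p = 0.47 in limma) and 2.45 rescaled (standard error 0.59, adjusted p = 0.121). Rpl36a-ps1 followed at 1.20 in FPKM, from an FPKM of 2.20 to 3.00 in NC-chow and 4.01 to 18.8 in the FET-chow mice. The next were Rpl9 (1.07), Rpsa (0.98) and Rps19 (0.97). Without FET-chow mouse 2 these values were 1.31 for Rpl41, 0.57 for Rpl36a-ps1, 0.48 for Rpl9, 0.49 for Rpsa and 0.61 for Rps19. Without FET-chow mouse 4 the last 3 were 1.63, 1.78 and 1.67. Without NC-chow mice 5 and 6 Rpl9 was at 0.69 and Rpsa at 0.56, and without FET-chow mouse 3 Rps19 was at 0.64.

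Rpsa (ENSMUSG00000032518, chromosome 9 from 120127689 to 120132369) encodes a 40S protein also known as a laminin receptor. In ppm of coding FPKM it was at 997, 494 and 333 in the NC-chow mice, 496, 1277 and 1191 in the IVF-chow mice and 3014, 1635 and 987 in the FET-chow mice. FET-chow mouse 4 was just under NC-chow mouse 1, so that the groups overlapped, and the adjusted p of the rescaled fold change of 1.61 was 0.229. Rps19, the 40S protein most often affected in Diamond-Blackfan anaemia, was at 212, 120 and 97.2 ppm in the NC-chow mice, 116.6, 245 and 255 in the IVF-chow mice and 631, 429 and 276 in the FET-chow mice. The rescaled log2 fold change was 1.57 (adjusted p = 0.169) and each FET-chow mouse was above the other 6. Rpl9, of the 60S, was at 116.5, 45.9 and 49.4 ppm in NC-chow, 37.3, 171 and 117.5 in IVF-chow and 465, 135 and 174 in the FET-chow mice. IVF-chow mouse 3 was above FET-chow mouse 3.

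Rps6, the 40S protein phosphorylated by S6 kinase downstream of insulin and mTOR, differed less. Its FPKM was 33.9, 43.5 and 49.3 in NC-chow, 9.92, 48.2 and 57.2 in IVF-chow and 43.3, 48.0 and 21.3 in the FET-chow mice. The log2 fold change in FET-chow against NC-chow was -0.23 in FPKM (standard error 1.01, adjusted p = 0.95 in limma), but 0.39 rescaled (standard error 0.33, adjusted p = 0.571). Its sign thus turned with the scaling.

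A few members had a negative fold change on both scales. Rps26 (ENSMUSG00000025362, chromosome 10 from 128624534 to 128626747), a 40S protein near the mRNA exit, had an FPKM of 19.4, 35.6 and 40.1 in NC-chow, 4.90, 33.5 and 41.2 in IVF-chow and 17.8, 26.8 and 9.13 in the FET-chow mice. The log2 fold change in FET-chow against NC-chow was -0.85 in FPKM and -0.24 rescaled, and the groups overlapped. In FPKM it was -0.46 without FET-chow mouse 4 and -0.23 without NC-chow mice 5 and 6. It was the only gene of the 31 of the 40S below 0 on the rescaled scale. Rpl10-ps3 was at -0.72 and -0.12. Rpl15, of the 60S, was at -0.55 in FPKM and at 0.02 rescaled. Without FET-chow mouse 4 the FPKM value of Rpl10-ps3 was -0.36 and that of Rpl15 was -0.0016, and without FET-chow mouse 3 that of Rpl15 was -0.93. The remaining 3 of the 5 members below 0 on the rescaled scale were the paralogues Rpl22l1 (-1.02), Rps27l (-0.26) and Rpl7l1 (-0.03).

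Rpl22l1 and Rps27l had the lowest fold changes in FPKM, against most of the family, and that of Rps27l (-0.88) was -0.23 without FET-chow mouse 4 and -1.37 without mouse 3. Rpl22l1 (ENSMUSG00000039221, chromosome 3 from 28805436 to 28807424) is a paralogue that can stand in for the 60S protein Rpl22. Its FPKM was 2.77, 3.90 and 4.52 in the NC-chow mice, 0.53, 6.28 and 9.16 in the IVF-chow mice and 0.25, 1.56 and 0.70 in the FET-chow mice. Each FET-chow mouse was below each NC-chow mouse, and IVF-chow mouse 2 lay among the FET-chow mice. The log2 fold change in FET-chow against NC-chow was -1.41 (standard error 0.66, adjusted p = 0.387 in limma). Against IVF-chow it was -1.46 (standard error 0.66, adjusted p = 1), and these were the only unadjusted p-values under 0.05 among the members in FPKM. The values of FET-chow mice stood for an estimated 0.28, 2.4 and 1.1 fragments, and those of NC-chow mice for 10, 25.3 and 32.9. An estimate below 1 is not a whole fragment, so these estimates are rough. At this depth a level in a FET-chow mouse rests on very few fragments.

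The ratio of 2 genes within a mouse does not depend on how the library is scaled. Rpl22l1 stood to Rpl22 (FPKM 4.53 to 19.5 in the FET-chow mice) as 0.269, 0.369 and 0.538 in the NC-chow mice, 0.283, 0.443 and 0.404 in the IVF-chow mice and 0.017, 0.080 and 0.154 in the FET-chow mice. Each FET-chow mouse lay below the other 6. Rpl22 stood for an estimated 16.9, 31.2 and 7.58 fragments in the FET-chow mice and 38.8, 71.8 and 64 in the NC-chow mice. Both parts of the ratio were thus sparse in the FET-chow mice. The difference in mean log2 ratio was -2.66 in FET-chow against NC-chow and -2.63 against IVF-chow (two-sided exact permutation test, p = 0.1 for both, the smallest that 3 against 3 allows, and 0.5 adjusted over 15 tests). When single mice were left out, the first difference ran from -3.34 to -1.76, the latter without FET-chow mouse 2, and without NC-chow mice 5 and 6 it was -2.17.

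Rps27l (ENSMUSG00000036781, chromosome 9 from 66946086 to 66949516), a paralogue of the 40S protein Rps27 and a known target of p53, stood to Rps27 as 0.876, 1.44 and 2.10 in NC-chow, 0.710, 0.516 and 0.913 in IVF-chow and 0.341, 0.540 and 0.380 in the FET-chow mice. The FET-chow mice were below all NC-chow mice, and FET-chow mouse 3 was just above IVF-chow mouse 3. The mean log2 ratio differed by -1.75 in FET-chow against NC-chow (exact permutation test, p = 0.1, adjusted 0.5), by -0.99 in IVF-chow against NC-chow (exact p = 0.2, adjusted 0.5, and -0.34 without NC-chow mice 5 and 6) and by -0.75 in FET-chow against IVF-chow (exact p = 0.2, adjusted 0.5). Here the fragments were many more, 26.7 to 130 in FET-chow and 236 to 762 in the NC-chow mice for Rps27l. The first difference was -2.08 to -1.45 when single mice were left out, and -1.09 without NC-chow mice 5 and 6. In ppm of coding FPKM, Rps27 was at 924, 424 and 371 in NC-chow and 2006, 1413 and 1128 in the FET-chow mice, while Rps27l was at 810, 609 and 778 and at 684, 763 and 429. The FET-chow mice were thus higher for Rps27, and overlapped with NC-chow for Rps27l.

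The other 3 pairs overlapped between all groups. Rps27rt, a retrogene copy of Rps27, stood to it as 0.272 to 0.388 in NC-chow, 0.245 to 0.299 in IVF-chow and 0.253 to 0.446 in the FET-chow mice. Rpl36al, a copy of Rpl36a, was 1.80 to 2.78, 2.38 to 2.89 and 1.39 to 4.28 times its parent. Rpl7l1, a relative of Rpl7, stood at 0.078 to 0.125, 0.077 to 0.165 and 0.010 to 0.118, the last low value being FET-chow mouse 4 with an estimated 0.56 fragments.

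**Figure D4:**
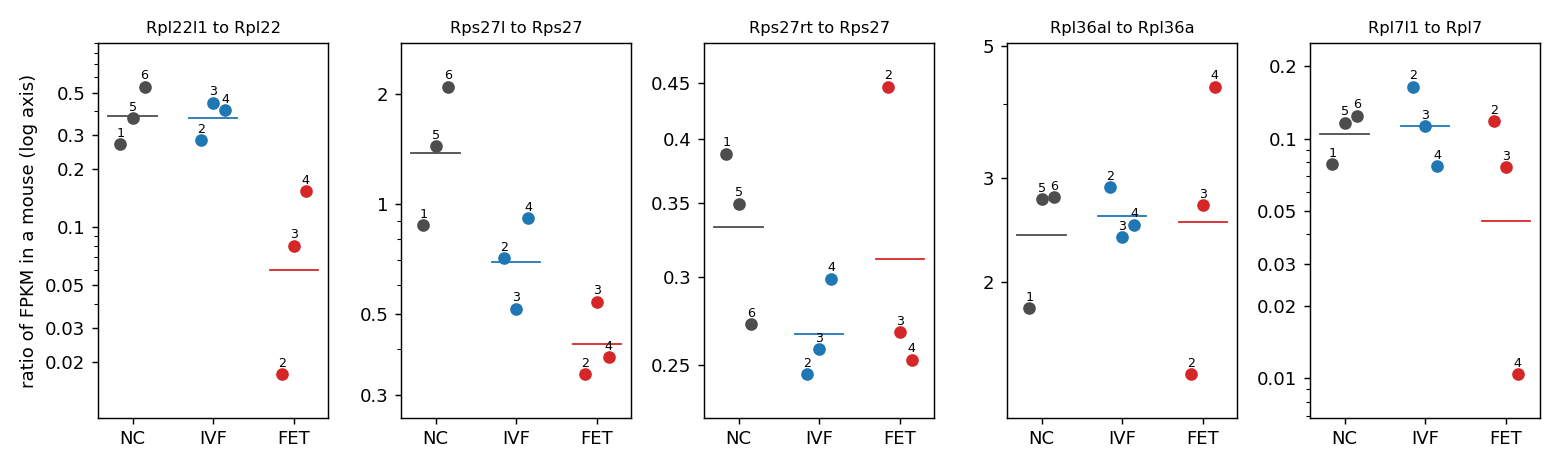
FPKM of a paralogue divided by that of its parent gene in each mouse (log axis), in NC-chow, IVF-chow and FET-chow mice, with numbered points for mice and lines at the geometric mean of 3 mice. Rpl22l1 to Rpl22 is lower in the 3 FET-chow mice (0.017 to 0.154) than in the other 6 (0.269 to 0.538). Rpl22l1 stood for an estimated 0.278, 2.39 and 1.11 fragments in FET-chow mice 2, 3 and 4.

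IVF-chow mice were compared with NC-chow mice to ask how in vitro fertilization with fresh transfer differs from natural conception. No member passed the test in FPKM (limma, 0 of 86, against 0.0592% of all genes), and none had an unadjusted p under 0.05, where 4.07% of all genes did. The median log2 fold change was -0.22 with 29 of 86 positive, close to the -0.25 of all genes with 31.1% positive. Rescaled, the median was 0.08 with 48 positive, and the median of all genes was -0.07 with 44.2% positive. On that scale none of 86 was called (limma, against 0% of all genes) and 1 of 86, Rpl14, had an unadjusted p under 0.05, against 5.43%. The sign of the rescaled median turned with single mice, from -0.10 without IVF-chow mouse 3 to 0.36 without IVF-chow mouse 2, and it was -0.12 without NC-chow mice 5 and 6. Rescaled, each IVF-chow mouse was above each NC-chow mouse for 3 of 86 members, against 4.87%, and below each for 0 of 86, against 11.3%. The median in FPKM was 0.68 without IVF-chow mouse 2, -0.87 without IVF-chow mouse 4, -0.45 without IVF-chow mouse 3, -0.36 without NC-chow mouse 1 and 0.0044 without NC-chow mice 5 and 6. The lowest fold changes in FPKM belonged to Rpl30 (-0.93), an RNA-binding protein of the 60S, Rpl23 (-0.78), a 60S protein known to bind Mdm2, and Rps7 (-0.76), and without IVF-chow mouse 2 they were -0.24, 0.08 and 0.15. The highest belonged to Rpl41 (0.96), Rpl36a-ps1 (0.94) and Rpl9-ps6 (0.81). These ranged with single mice left out from 0.33 (without IVF-chow mouse 3) to 1.93 for Rpl41, from 0.38 (without IVF-chow mouse 3 or 4) to 2.08 for Rpl36a-ps1 and from 0.14 (without IVF-chow mouse 3) to 1.86 for Rpl9-ps6, the highest value in each case being that without IVF-chow mouse 2.

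FET-chow mice were compared with IVF-chow mice to ask what freezing, storage, thawing and the culture after thawing together add to in vitro fertilization. No member passed the test in FPKM (limma, 0 of 86, against 0.0888% of all genes) and 1, Rpl22l1, had an unadjusted p under 0.05, against 4.01% of all genes. Of the 86 members, 0 had each FET-chow mouse above each IVF-chow mouse in FPKM, where 86 of the 6755 genes tested did. Each FET-chow mouse was below each IVF-chow mouse for 0 of 86 members and for 173 of all genes. The median log2 fold change was 0.37 with 78 of 86 positive, where that of all genes was -0.20 with 34.4% positive. It was -0.49 without IVF-chow mouse 2, and with other single mice left out it lay between 0.09 (without FET-chow mouse 3) and 0.98 (without IVF-chow mouse 4), being 0.15 without FET-chow mouse 2, 0.68 without IVF-chow mouse 3 and 0.84 without FET-chow mouse 4. Rescaled, the median was 0.68 with 84 of 86 positive, against 0.02 with 51.2% positive for all genes. The median of the members stayed between 0.45 and 0.95 when single mice were left out. On that scale again none of 86 was called (against 0.104%), 20 members higher and 1 lower had an unadjusted p under 0.05 (against 9.43%), and each FET-chow mouse was above each IVF-chow mouse for 32 of 86 (against 6.72%) and below each for 0 of 86 (against 6.01%). The 5 red cell markers had positive fold changes on that scale, with a median of 1.20, and their part in this result was not tested. This comparison and the one with NC-chow share the FET-chow mice.

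The 3 stalk genes had the highest median log2 fold change of the classes in FET-chow against IVF-chow, 0.65 in FPKM and 0.95 rescaled. Differences between classes were not tested, and single genes of other classes, such as Rps3a1 (1.26 rescaled), lay above Rplp2 (0.80). Rplp0 (ENSMUSG00000067274, chromosome 5 from 115559467 to 115563727), the base of the stalk and a common reference gene in qPCR, was at 426, 238 and 224 ppm of coding FPKM in the NC-chow mice, 177, 378 and 209 in the IVF-chow mice and 847, 528 and 487 in the FET-chow mice. The FET-chow mice were above all others. Its log2 fold change in FET-chow against IVF-chow was 0.98 in FPKM (standard error 1.03, adjusted p = 1 in limma) and 1.28 rescaled (standard error 0.41, adjusted p = 0.409). Without IVF-chow mouse 2 the value in FPKM was 0.14, and it was 1.53 without FET-chow mouse 4. Rplp1 was at 1969, 1468 and 1551 ppm in NC-chow, 783, 2098 and 1482 in IVF-chow and 3180, 2241 and 2497 in the FET-chow mice. Rplp2 was at 112, 120 and 102, at 67.8, 126 and 124, and at 179, 202 and 176 in the same order of groups. For all 3 stalk genes each FET-chow mouse thus lay above each of the other 6 mice, where 9.99% of all genes lay so against NC-chow and 6.72% against IVF-chow, with rescaled log2 fold changes against NC-chow of 1.06, 0.66 and 0.69 and adjusted p-values of 0.253, 0.444 and 0.312 (limma). In FPKM these fold changes were 0.44, 0.02 and 0.10, with adjusted p-values of 0.903, 0.995 and 0.975. Rps3a1, of the 40S, had the next highest fold change in FPKM against IVF-chow (0.95), followed by Rpl41 (0.88), and without IVF-chow mouse 2 these were -0.06 and -0.09. The lowest after Rpl22l1 were Rpl7l1 (-0.55) and Rpl29 (-0.37). Rpl29, a 60S protein also described as a heparin-binding protein, had the largest standard error of the members on the rescaled log2 scale (1.28). Its standard error in FPKM was 1.12, below the 1.13 of Rpsa. Its FPKM was 3.77, 49.1 and 18.9 in NC-chow, 0.40, 96.1 and 58.8 in IVF-chow and 4.96, 35.1 and 16.4 in the FET-chow mice.

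Copies of ribosomal protein genes share sequence, and reads could be split between a gene and its copies. The 301 annotated pseudogenes with ribosomal protein symbols summed to 1.36%, 0.93% and 0.85% of coding FPKM in the NC-chow mice, 0.78%, 1.56% and 1.35% in the IVF-chow mice and 2.18%, 1.79% and 1.77% in the FET-chow mice. Each FET-chow mouse again lay above the other 6, as for the members. The values of single members with many copies are uncertain, the more so as the counting of reads that match several places and the use of strand are not given in the sources used here.

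The other genes of translation were described by lists. Fau and Rack1, which encode 40S proteins whose symbols fall outside the rule, had log2 fold changes in FET-chow against NC-chow of 0.77 (adjusted p = 0.374 in limma) and 0.84 (adjusted p = 0.385) rescaled, and of 0.14 and 0.25 in FPKM. The 7 elongation factors had a median of 0.55 rescaled and -0.09 in FPKM, with 5 of 7 positive on the rescaled scale, and Eef1e1, a scaffold protein of the tRNA synthetase complex, at -0.91 with an FPKM of 0 in FET-chow mice 2 and 4. The genes named from the lists are those with the largest absolute fold changes in FPKM, and not typical of them. The 13 subunits of initiation factor eIF3 had a median of 0.16 rescaled and -0.36 in FPKM, the 13 other initiation factors 0.02 and -0.46, and 8 other TOP mRNAs such as Tpt1 and Naca 0.23 and -0.29. The 22 tested ribosome biogenesis factors of 30, which assemble the subunits in the nucleolus, were at -0.18 and -0.50, with Ltv1, an assembly factor of the 40S, at -1.37 in FPKM (adjusted p = 0.334 in limma) and Rrp1 at -1.59 (adjusted p = 0.387). Ltv1 was listed at 0 in all 3 FET-chow mice and at 0.79 to 2.67 in NC-chow, and Rrp1 at 0 in FET-chow mouse 2. Single factors of this list ran up to 0.41 in FPKM and 0.90 rescaled. The 9 tested genes of the TOR pathway were at 0.07 and -0.41, with 5 of 9 positive and a highest value of 1.05 on the rescaled scale, and Eif4ebp1, the repressor of cap-dependent translation that mTOR phosphorylates, was at -1.06 in FPKM (adjusted p = 0.548) and -0.66 rescaled, and Eif4ebp2, a related repressor, was at -0.92 and -0.37. No gene of these lists was called on either scale.

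The 67 tested genes of the mitochondrial ribosome, which translates mitochondrial mRNAs and shares no subunit with the cytosolic ribosome, had a median of 0.20 rescaled and -0.29 in FPKM, with 41 and 21 positive. Mrpl22 was at -2.51 in FPKM (adjusted p = 0.061 in limma) and -2.27 rescaled (adjusted p = 0.040, between 0.023 and 1 over 21 settings), the only call in these lists on either scale in FET-chow against NC-chow, and Mrps28, at 0 in FET-chow mouse 2, was at -1.84 in FPKM (adjusted p = 0.391). The FPKM of Mrpl22 was 3.01, 9.25 and 7.68 in the NC-chow mice, 1.86, 5.02 and 6.28 in the IVF-chow mice and 0, 0.92 and 0 in the FET-chow mice, whose libraries were the smallest. FET-chow mouse 3 stood for an estimated 1.34 fragments and the NC-chow mice for 10.3 to 57.1, so that this call rests on values at or near 0. The differences between lists were not tested.

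**Figure D5:**
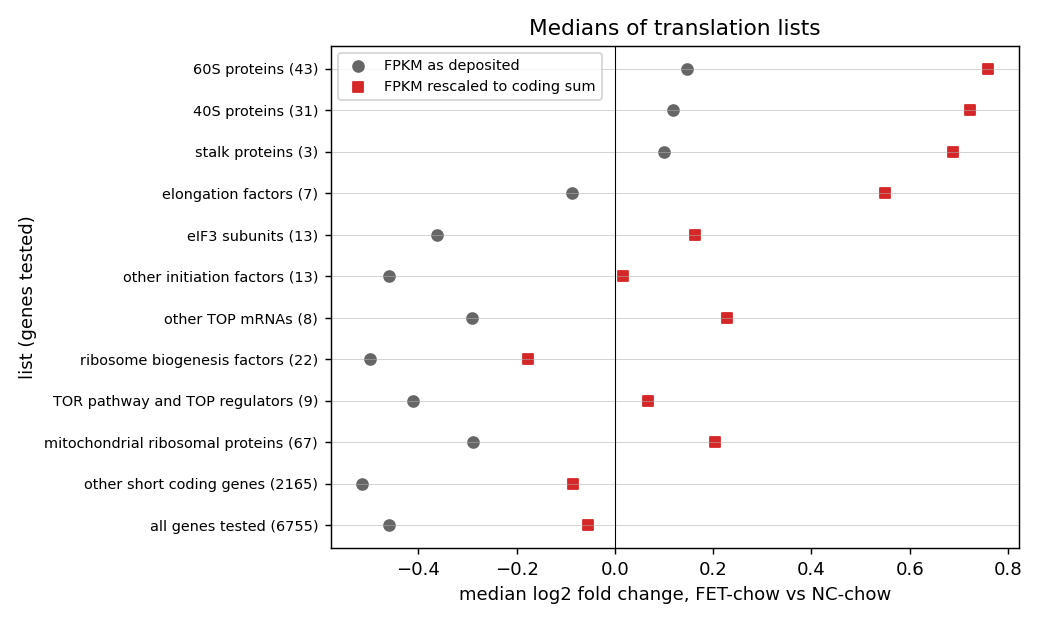
Median log2 fold change in FET-chow against NC-chow of lists of translation genes, with the number of genes tested, on FPKM as deposited (grey circles) and rescaled to nuclear protein-coding genes (red squares). The 60S, 40S and stalk lists of the members are at 0.69 to 0.76 rescaled, elongation factors at 0.55 and ribosome biogenesis factors at -0.18.

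Markers of other cells were read beside these values. In FET-chow against NC-chow the 8 hepatocyte markers had a median rescaled log2 fold change of -0.44, and their summed share was 11.2% to 14.0% of coding FPKM in NC-chow and 10.4% to 12.2% in the FET-chow mice. The 5 red cell markers were at 0.24% to 0.91% in NC-chow, 0.17% to 0.23% in IVF-chow and 0.39% to 0.63% in the FET-chow mice. Against NC-chow, their rescaled median log2 fold change was 0.15 in the FET-chow mice and -1.26 in the IVF-chow mice. Between FET-chow and IVF-chow it was 1.20, and 5 of 5 were positive, against 51.2% of all genes. Of the 5, 4 had each FET-chow mouse above each IVF-chow mouse, against 6.72%, and none was called (limma), against 0.104%. The 8 macrophage markers were at 0.018% to 0.021% in NC-chow, 0.014% to 0.026% in IVF-chow and 0.017% to 0.074% in the FET-chow mice, FET-chow mouse 2 being the highest. Endothelial and stellate markers (8 genes) stayed under 0.025% and bile duct markers (5 genes) under 0.013% in all mice. Lymphocyte markers summed to at most 0.0014%. The part of these cells in the ribosomal protein values was not tested.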

How the data were processed

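Liver RNA of 9 mice, 3 per group, was sequenced on an Illumina system by a company named in the paper. The authors deposited FPKM values for 55335 genes, of which 55154 matched the GENCODE annotation of GRCm38 used here for symbols and positions. The submitters' processing notes name FastQC 0.11.5, STAR 2.5.3a, StringTie 1.3.1c and DESeq2 1.16.1. The build, the annotation, the use of strand and any further scaling are not given in the sources used here. The values are no counts, so no count test was run. Groups came from the sample labels, and diet, sex and recipients from the methods.

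The number of mapped fragments was estimated from steps of 1 fragment among low FPKM values. Genes with 1 transcript longer than 500 bases were used (up to 8 fragments, tolerance 0.02 fragments). In the 9 libraries 30.5% to 44.0% of these values lay on a step, against a mean of 3.78% to 4.01% over all depths tried. No error was computed for this estimate of depth. Estimated fragments of a gene used the median length of its annotated transcripts. The lengths used by the authors are not given in the sources used here, so these estimates are rough and can fall below 1.

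limma 3.58.1 in R 4.3.3 was fitted to log2(FPKM + 1) of 6755 genes averaging an FPKM of 1 or more over all mice, with all 3 groups in 1 model and the variance moderated with a trend on the mean. Tests were two-sided, an adjusted p (Benjamini-Hochberg over all genes tested) under 0.05 was called, and fold changes on this scale understate changes of low genes. Ratios of paralogues were compared by exact permutation tests in scipy 1.17.1. Both procedures of estimating depth and fitting were tested on simulated data, and the outcome is not reported here. Alternatives were a pseudocount of 0.1, no filter, a filter at a mean FPKM of 10, median-ratio scaling, quantile normalization, rescaling to nuclear protein-coding genes, fits of only 2 groups, mouse number as a block, and the omission of single mice or of NC-chow mice 5 and 6. Combinations with rescaling were chosen after seeing the data.

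Genes were named by rule. It took members called and those with the largest fold changes (5 and 5 in FET-chow against NC-chow, 3 and 3 in the other comparisons). It also took the most and least abundant members, stalk genes, Rpsa, Rps6, paralogues with their parents and 2 genes of each list. Of the list genes, Eif3l, Eif3h, Eif4a1, Eif4b and Eef1d are not described in the results. Their log2 fold changes in FPKM in FET-chow against NC-chow ran from -1.25 to -0.60. Rpl14, Rpl13a and Rpl17, outside the rule, were named after their values had been seen. The members and lists were chosen with earlier results of these data known. Some genes of the lists are not reported here.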

Additional observations from a re-analysis of the deposited data

How the results depend on the processing

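No ribosomal protein gene was called in any of 66 fits (3 comparisons, 22 settings each). The median log2 fold change of the members in FET-chow against NC-chow, 0.11 in FPKM, was 0.72 after rescaling to nuclear protein-coding genes, 0.58 after median-ratio scaling and 0.53 after quantile normalization, and with single mice left out it ran from -0.20 in FPKM to 0.83 rescaled. Genes called among all tested in FET-chow against NC-chow (16) were 0 with no filter, 5 with a filter at a mean FPKM of 10, 0 in a fit of only the 2 groups, 6 without NC-chow mice 5 and 6, and 1 (without FET-chow mouse 3) to 83 (without NC-chow mouse 1) with single mice left out, being 57 without FET-chow mouse 2. In IVF-chow against NC-chow (4) they were 0 with a pseudocount of 0.1, no filter, median-ratio scaling, quantile normalization, rescaling or 2 groups, 2 with the filter at 10, 2 without NC-chow mice 5 and 6, and 0 (without IVF-chow mouse 3 or 4) to 24 (without NC-chow mouse 1) with single mice left out, being 1 without IVF-chow mouse 2. In FET-chow against IVF-chow (6) they were 0 with no filter or 2 groups, and 0 (without IVF-chow mouse 4) to 10 (without IVF-chow mouse 2) with single mice left out, being 2 without FET-chow mouse 3, 3 without mouse 4 and 9 without mouse 2. The sign of the members' median in IVF-chow against NC-chow, -0.22, turned to 0.18 after median-ratio scaling, 0.12 after quantile normalization and 0.083 rescaled. Single genes changed sign too. Rpl15 in FET-chow against NC-chow was 0.024 rescaled. Rpl29 in FET-chow against IVF-chow was 0.017 with a pseudocount of 0.1, 0.11 after quantile normalization, 0.17 rescaled and from -2.29 (without IVF-chow mouse 2) to 0.76 (without IVF-chow mouse 3) with single mice left out. With single mice left out, in IVF-chow against NC-chow, Rpl23 ran from -1.29 to 0.077 and Rps7 from -1.24 to 0.15. In FET-chow against IVF-chow, Rpl7l1 ran from -1.15 to 0.11 (without FET-chow mouse 4), Rps3a1 from -0.061 to 1.65 and Rpl41 from -0.086 to 1.51. For Rpl23, Rps7, Rps3a1 and Rpl41 the sign turned without IVF-chow mouse 2, and Rpl29 was also above 0 without IVF-chow mouse 4 (0.41) or FET-chow mouse 2 (0.32). The cause of these changes was not tested.

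The mouse numbers 2, 3 and 4 occur in both IVF-chow and FET-chow. Deviations of mice with the same number from their group means, in FPKM, correlated at -0.13, 0.02 and -0.26. They were not set beside those of mice with different numbers, so these values cannot decide whether the numbers pair the mice. With the number as a replicate block, 2 genes were called of all tested, no member, and the members' median was 0.37 in FPKM and 0.68 rescaled.

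With 3 mice per group the median standard error of a member was 1.02 in FPKM and 0.39 rescaled. In FET-chow mouse 4 the median tested member rested on an estimated 37.4 fragments, with 8 of 86 under 10 fragments, and in IVF-chow mouse 2 on 38.9 with 12 under 10.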
